A study of Gallus gallus with 6 samples.

Results

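Amino acid and amine transporters of the solute carrier (SLC) families 1, 3, 6, 7, 36, 38 and 43 were examined in the ileum, the last stretch of the small intestine, of Taiping chickens. A gene was taken when its symbol in the deposited table named one of these families, in upper or lower case, and 46 of the 17623 listed genes met this rule. They were sorted by the main substrate of the mammalian protein into cationic (5 genes), neutral (20), acidic (6) and amine (7) transporters, the last class holding carriers of monoamines, GABA, taurine and betaine. SLC3A1 is a heavy chain with no substrate path of its own, 6 genes have no settled amino acid substrate, and SLC7A6OS, which shares only the name, is no transporter. The peptide transporters of the SLC15 family lie outside the rule, so the genes are amino acid and amine transporters rather than peptide carriers.

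Amino acids from digested protein cross the gut lining in 2 steps. Carriers of the brush border, the enterocyte membrane that faces the lumen, take them up with sodium, with protons or in exchange for another amino acid, and carriers of the basolateral membrane pass them on to the blood. Other members serve the cell's own needs, such as protein synthesis and nutrient sensing at the lysosome, or end the signal of a neurotransmitter by taking it back up.

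The supplemented animals (MP_FOS) had drinking water with 2 mL of probiotics and 1 mL of fructooligosaccharide, a fructose chain that gut bacteria ferment, added to each litre. The control animals (CT) ate the same kind of corn and soybean basal diet with neither supplement. Each group gave 3 libraries from birds labelled male and aged 2 months, and the labels leave it unsaid whether the libraries of a group come from different birds. The p-values therefore measure only the spread between these libraries, which may in part be technical. The comparison asks which transporter genes differ with the supplement.

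Library totals ran from 11833015 to 17687232 deposited counts in MP_FOS and from 16056240 to 18106651 in CT, and 1 count stood for 0.0531 to 0.0843 normalised CPM, the count scaled to library size. All 10 ileal enterocyte markers looked for were measured, among them SLC10A2, the ileal bile acid carrier, at a mean of 113 FPKM in MP_FOS and 60.2 FPKM in CT. Against the male label, 4 of the 6 libraries held transcripts of the female W chromosome. The 2 libraries without them were MP_FOS replicate 2 (7.06 W-linked counts, against 5957 and 4762 in MP_FOS replicates 1 and 3) and CT replicate 2 (7 counts, against 6725 and 7461 in CT replicates 1 and 3). Libraries with and without W-linked transcripts cannot be one bird's, so the RNA of each group comes from more than 1 bird. For many, but not all, of the members whose values move with these 2 libraries, the value without them is given, in part only in the closing section. A member shown without it may still depend on these libraries.

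Levels of different genes were compared in FPKM, which scales fragment counts to transcript length and library size. SLC6A19 (ENSGALG00000019527), also called B0AT1, the main sodium-driven carrier of neutral amino acids in the brush border, was the most abundant member in both diets. It had 844, 420 and 757 FPKM in MP_FOS replicates 1, 2 and 3, against 646, 1134 and 586 FPKM in CT replicates 1, 2 and 3. Averaged over the 6 libraries it made up 48.3% of the summed FPKM of all 46 members and stood at the 99.5th percentile of all listed genes. Its lowest library lay above the highest library of every other member.

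SLC3A1 (ENSGALG00000009973, the heavy chain rBAT), SLC7A9 (ENSGALG00000021158, the light chain b0,+AT that rBAT carries to the brush border) and SLC1A1 (ENSGALG00000010187, the glutamate, aspartate and cystine carrier EAAT3) came next. SLC3A1 averaged 124 ± 56.5 FPKM in MP_FOS and 176 ± 29.8 FPKM in CT (SD, n = 3 each). SLC7A9 averaged 127 ± 60.8 FPKM in MP_FOS and 163 ± 61.1 FPKM in CT, and SLC1A1 averaged 69.7 ± 23.2 FPKM in MP_FOS and 98.6 ± 30.0 FPKM in CT. With SLC6A19, these brush border genes made up 73.3% of the summed FPKM. SLC1A1 was below both SLC3A1 and SLC7A9 in each of the 6 libraries, although the ranges over libraries overlap. SLC7A9 was below SLC3A1 in 4 of the 6, so the order of that pair is not settled.

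Carriers of general use followed. SLC38A10, whose substrate is less settled, averaged 66.3 ± 14.3 FPKM in MP_FOS and 82.1 ± 8.98 FPKM in CT. SLC6A6, the taurine carrier, averaged 77.0 ± 18.8 FPKM in MP_FOS and 65.7 ± 5.81 FPKM in CT. SLC43A2 (LAT4), which lets large neutral amino acids leave the enterocyte on the blood side, averaged 50.0 ± 8.0 FPKM in MP_FOS and 48.8 ± 8.09 FPKM in CT. SLC43A2 was separated by non-overlapping 6-library ranges from its neighbours in the order, SLC6A6 above it and SLC38A2 below it. Its range overlapped those of SLC1A1 and SLC38A10, higher in the order, and of SLC6A20, lower in it. It is therefore not a level of its own.

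SLC38A2 (SNAT2, a sodium-driven carrier that cells raise when amino acids run short) averaged 26.3 ± 5.41 FPKM in MP_FOS and 26.7 ± 5.68 FPKM in CT. SLC6A20, the proline carrier of the brush border, averaged 26.9 ± 11.4 FPKM in MP_FOS and 25.5 ± 14.9 FPKM in CT. SLC36A1 (PAT1, a proton-driven carrier of small neutral amino acids) averaged 19.6 ± 2.33 FPKM in MP_FOS and 14.5 ± 0.304 FPKM in CT. SLC6A4, the serotonin carrier that gut epithelium shares with neurons, averaged 15.3 ± 4.46 FPKM in MP_FOS and 16 ± 1.13 FPKM in CT. These 4 genes overlapped along the order of levels, each with the next.

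Of the 46 members, 15 averaged at least 10 FPKM over the 6 libraries, 16 lay between 1 and 10 FPKM, and 15 lay under 1 FPKM. The 15 highest comprised 8 neutral, 1 cationic, 1 acidic and 2 amine carriers, the heavy chain, and 2 genes without a settled substrate. SLC38A1, SLC38A7, SLC38A6 and SLC38A4, all of the SNAT family, were the lowest of these, with 6-library means at the 58.9th to 63.6th percentile of all listed genes. The cationic carriers other than SLC7A9 each averaged under 10 FPKM over the 6 libraries. SLC7A3 averaged 10.4 ± 4.40 FPKM in MP_FOS and 7.75 ± 1.55 FPKM in CT, and SLC7A1, the arginine and lysine carrier CAT1, averaged 6.49 ± 2.34 FPKM in MP_FOS and 4.23 ± 0.491 FPKM in CT. In the order of levels, 41 of the 45 neighbouring pairs had overlapping 6-library ranges, and the exceptions were SLC6A19 over SLC3A1, SLC6A6 over SLC43A2, SLC43A2 over SLC38A2, and SLC6A9 over SLC6A11. This count covers neighbours only. Except for the gap below SLC6A19, genes further apart in the order overlapped across these gaps.

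The members under 1 FPKM included carriers known from nervous tissue or retina, namely the glutamate carriers SLC1A2, SLC1A3 and SLC1A7, the GABA carrier SLC6A13, the glycine carrier SLC6A5 and the proline carrier SLC6A7. SLC1A3 had 1, 0 and 0 counts in MP_FOS and 4, 0 and 0 counts in CT, and SLC6A5 had 0, 1 and 0 counts in MP_FOS and 1, 0 and 0 counts in CT. SLC38A11 was listed at 0 in every library. SLC7A11, the cystine and glutamate exchanger xCT, averaged 0.453 ± 0.321 FPKM in MP_FOS and 0.357 ± 0.18 FPKM in CT. SLC6A18, the carrier most like SLC6A19 in mammals, averaged 0.587 ± 0.155 FPKM in MP_FOS and 0.683 ± 0.0208 FPKM in CT.

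**Figure D1:**
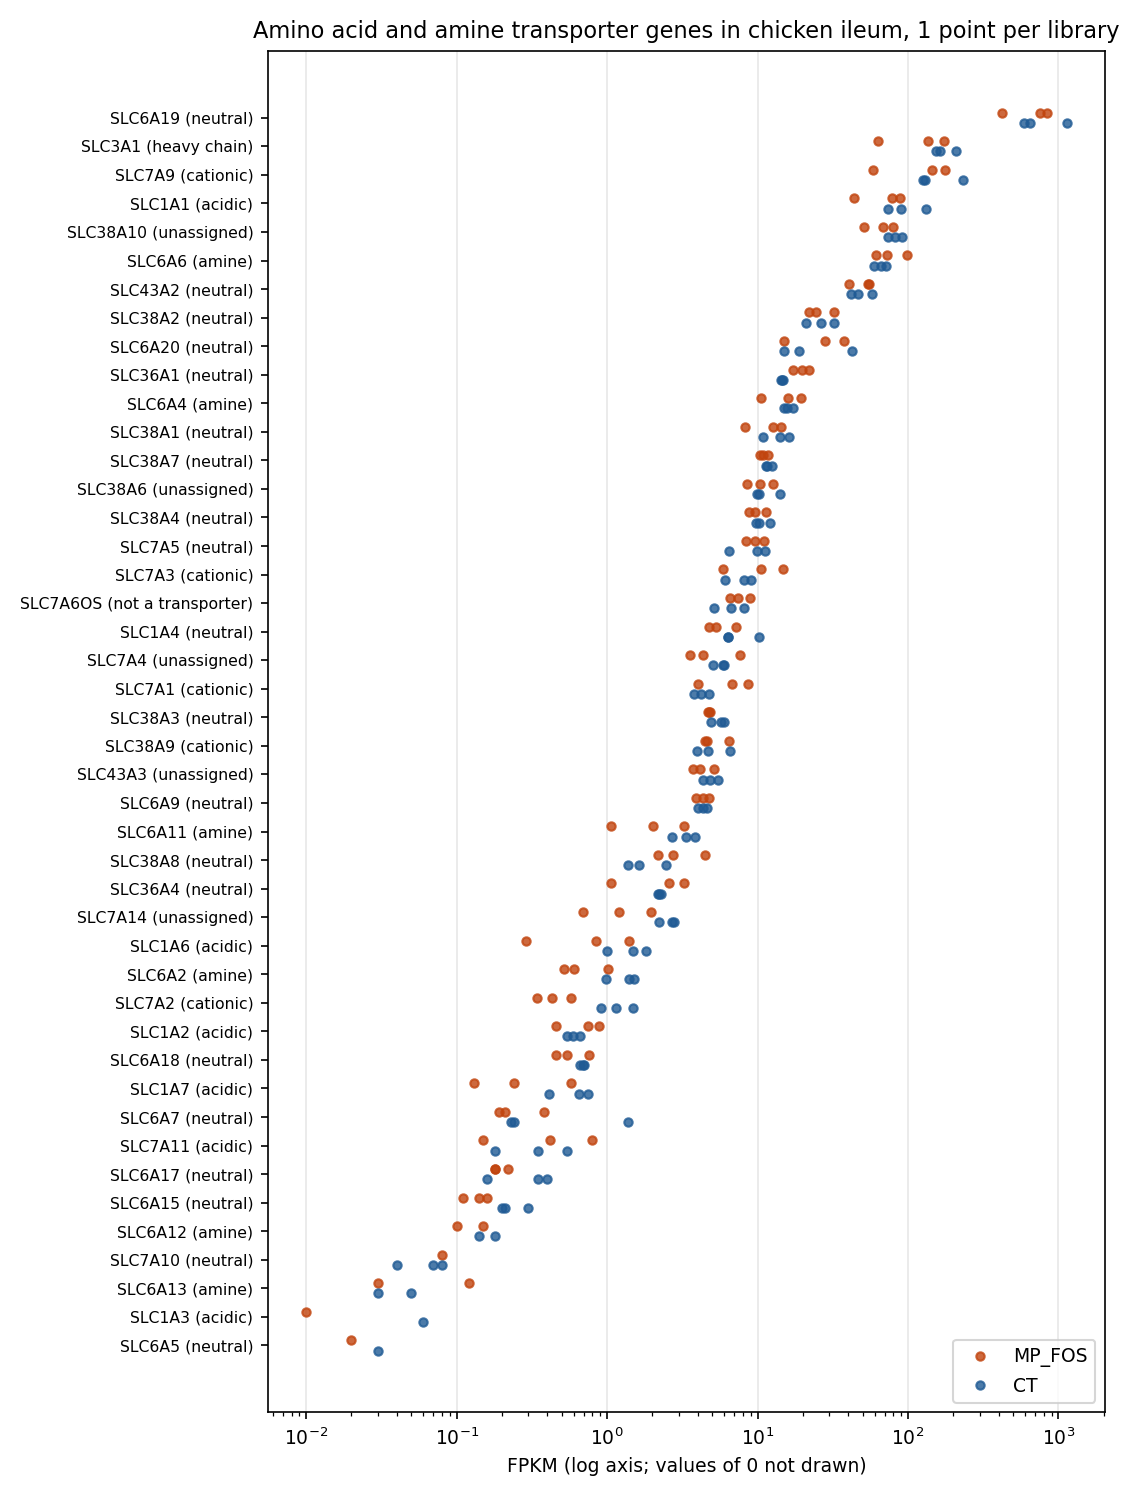
FPKM of the members described here with a value above 0 (log axis), 1 point per library, MP_FOS drawn above CT within each gene, ordered from the highest to the lowest mean over the 6 libraries; the main substrate class stands in brackets. SLC6A19 lies apart at 420 to 1134 FPKM, and 15 of the 46 members average under 1 FPKM.

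The 4 most abundant members shared one profile across libraries: each was lowest in MP_FOS replicate 2 and highest in CT replicate 2, the 2 libraries without W-linked transcripts. How many of all genes share this profile was not counted. The log2 differences of libraries with W-linked transcripts minus those without were −0.13 (SLC6A19), 0.07 (SLC7A9), 0.31 (SLC3A1) and −0.01 (SLC1A1). Their edgeR adjusted p-values ran from 0.955 to 0.999. Such a difference is taken over both diets together, so libraries at opposite ends cancel in it. It therefore cannot show the profile above, and nothing about that profile is read from it. The diets were compared in normalised CPM. SLC6A19 had 1662, 842 and 1442 CPM in MP_FOS replicates 1, 2 and 3, against 1190, 2172 and 1077 CPM in CT replicates 1, 2 and 3. SLC7A9 had 267, 111 and 315 CPM in MP_FOS replicates 1, 2 and 3, against 216, 419 and 224 CPM in CT replicates 1, 2 and 3. SLC3A1 had 397, 146 and 300 CPM in MP_FOS replicates 1, 2 and 3, against 350, 467 and 329 CPM in CT replicates 1, 2 and 3. The MP_FOS and CT libraries overlapped in all of these. SLC1A1 overlapped as well, with 127, 72.3 and 139 CPM in MP_FOS replicates 1, 2 and 3 and 137, 209 and 112 CPM in CT replicates 1, 2 and 3.

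No diet difference passed for these genes. The edgeR log2 fold changes (MP_FOS over CT, with SE) were −0.17 ± 0.35 for SLC6A19, −0.31 ± 0.42 for SLC7A9, −0.44 ± 0.35 for SLC3A1 and −0.44 ± 0.31 for SLC1A1, with adjusted p-values from 0.632 to 0.885 (edgeR, Benjamini-Hochberg over all genes tested). The 95% interval of SLC6A19 ran from −0.99 to 0.65, so it spans both directions. The signs turned without the replicates numbered 2. With both left out, the log2 fold changes were 0.46 for SLC6A19, 0.41 for SLC7A9, 0.04 for SLC3A1 and 0.09 for SLC1A1. Leaving out MP_FOS replicate 2 alone gave 0.07 for SLC6A19, 0.02 for SLC7A9, −0.13 for SLC3A1 and −0.21 for SLC1A1. Leaving out CT replicate 2 alone gave 0.22 for SLC6A19, 0.07 for SLC7A9, −0.27 for SLC3A1 and −0.15 for SLC1A1, so SLC3A1 and SLC1A1 stayed below 0 in both of these fits.

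The 4 ratios computed, all among SLC6A19, SLC7A9, SLC3A1 and SLC1A1, varied less between libraries than the levels of these genes. These genes share their lowest and highest library. No ratio with SLC6A20, a brush border gene with another profile, was computed. SLC7A9 spanned 3.97-fold between its lowest and highest library in FPKM and SLC3A1 3.35-fold, whereas the ratio of light chain to heavy chain, SLC7A9 over SLC3A1, was 0.832, 0.938 and 1.30 in MP_FOS replicates 1, 2 and 3 and 0.764, 1.11 and 0.844 in CT replicates 1, 2 and 3. SLC6A19 over SLC1A1 was 10.9, 9.65 and 8.61 in MP_FOS and 7.17, 8.60 and 7.94 in CT, without overlap between the diets. That separation was picked out after the values were seen, among 4 ratios computed, and was not tested.

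Genes that work beside these carriers were looked at in the same libraries. SLC15A1 (PEPT1), the brush border carrier of small peptides, had 1036, 498 and 810 CPM in MP_FOS replicates 1, 2 and 3, against 639, 1671 and 748 CPM in CT replicates 1, 2 and 3, with the same lowest and highest library. TMEM27 (collectrin), the partner of SLC6A19 in mammalian kidney, averaged 1.58 ± 1.01 CPM in MP_FOS and 0.871 ± 0.221 CPM in CT. The adjusted p-values were 0.761 for SLC15A1 and 0.609 for TMEM27 (edgeR).

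The 10 enterocyte markers were found on 11 rows. Their summed FPKM, which the most abundant markers set, was 10469, 5728 and 3772 in MP_FOS replicates 1, 2 and 3 and 8596, 9035 and 7333 in CT replicates 1, 2 and 3. The median marker (log2 CPM relative to the CT mean) was at 0.43, 0.41 and −0.47 in MP_FOS and −0.0025, 0.16 and −0.063 in CT. In MP_FOS replicate 2 the sum thus lay below every CT library and the median above. No row was at 0, and 7 of the 11 had a higher mean in MP_FOS. edgeR called none of them and DESeq2 called 1, SLC10A2 (DESeq2 adjusted p = 0.00312). Summed smooth muscle markers (5 genes) were 3136, 1846 and 3060 FPKM in MP_FOS and 3016, 2095 and 3102 FPKM in CT, lowest in the replicates numbered 2. The part of either in the transporter values was not tested. In bulk tissue, fewer cells of a type and less RNA per cell cannot be told apart.

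**Figure D2:**
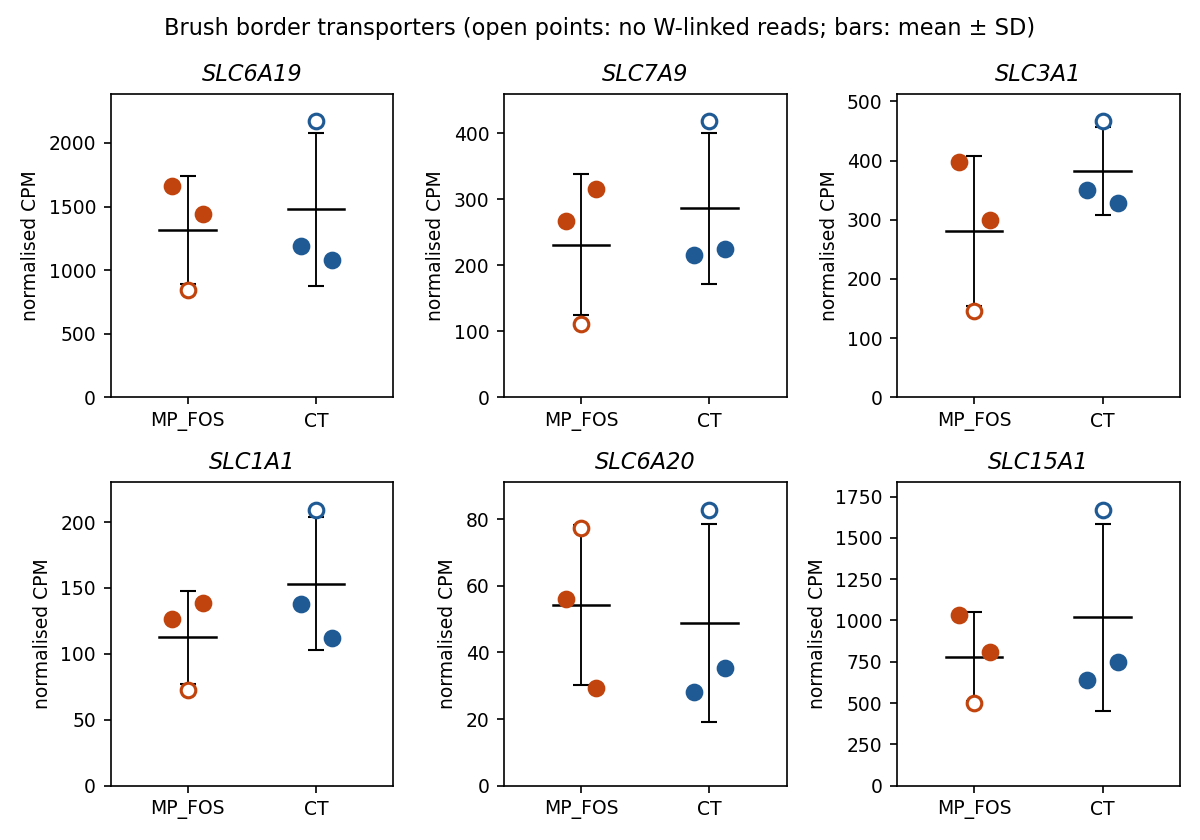
Normalised CPM of the brush border amino acid transporters SLC6A19, SLC7A9, SLC3A1, SLC1A1 and SLC6A20 and of the peptide carrier SLC15A1 in the 3 MP_FOS and 3 CT libraries, with the mean and SD as bars and open points for the libraries without W-linked transcripts. In SLC6A19 the open point of MP_FOS is the lowest library at 842 CPM and the open point of CT the highest at 2172 CPM.

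Over all members, no diet difference passed the test. Of the 46 genes, 38 passed the filter on low counts and were tested, and 8 did not (SLC6A7, SLC6A15, SLC6A12, SLC7A10, SLC6A13, SLC1A3, SLC6A5 and SLC38A11). The count at an adjusted p under 0.05 was 0 of 38 members in edgeR, where 0.0% of all 13774 tested genes were called, and 0 in DESeq2, where 0.778% were called. At an unadjusted p under 0.05, edgeR gave 2 members, 5.26% of the 38 against 10.6% of all genes. These were 1 higher member, SLC36A1, where 5.72% of all genes were higher at that p, and 1 lower member, SLC7A2, where 4.86% were lower. The MP_FOS and CT libraries did not overlap in 3 members, 7.89% against 16.7% of all genes. SLC36A1 was higher (8.2% of all genes were higher without overlap), and SLC7A2 and SLC7A14 were lower (8.49% of all genes). The mean was higher in MP_FOS in 15 members and lower in 23, where 51.5% of all genes were higher and 48.5% lower, and the median log2 fold change was −0.05 over the members and 0.01 over all genes. With 1 library left out in turn, 0 members were called in each of the 6 fits, also without MP_FOS replicate 1, where 1.59% of all genes were called. In the 4 libraries with W-linked transcripts edgeR called 0 members and 0.00723% of all genes, and 14 members did not overlap between the diets, 36.8% against 39.3% of all genes.

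**Figure D3:**
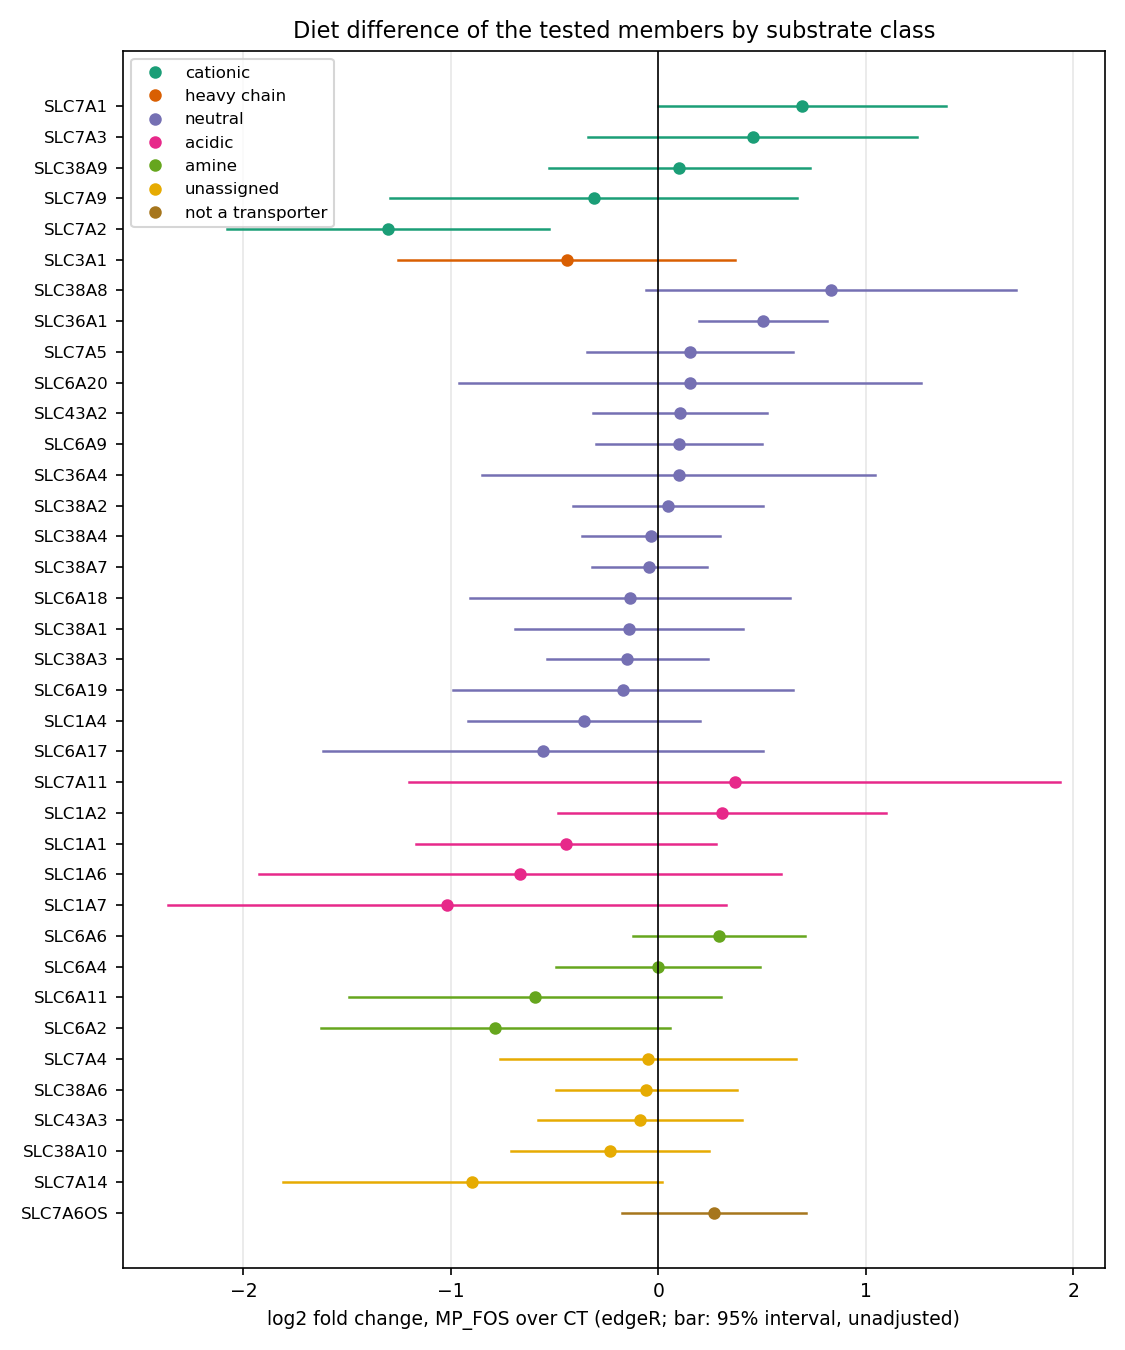
Log2 fold change (MP_FOS over CT, edgeR) of the tested members described here, with unadjusted 95% intervals, grouped by substrate class and ordered within it. The intervals of SLC7A2 (from −2.08 to −0.53) and SLC36A1 (from 0.20 to 0.81) lie on one side of 0, and those of the other members drawn cross it.

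Cationic amino acid carriers went both ways, with 3 of 5 higher in MP_FOS and a median log2 fold change of 0.10. SLC7A2 (ENSGALG00000013627, CAT2, an arginine carrier that immune and muscle cells raise in inflammation in mammals) had 20, 19 and 19 counts in MP_FOS replicates 1, 2 and 3, against 69, 44 and 56 counts in CT replicates 1, 2 and 3. In normalised CPM these were 1.19, 1.13 and 1.6 in MP_FOS and 4.14, 2.55 and 2.97 in CT. Every MP_FOS library lay below every CT library. The log2 fold change was −1.30 ± 0.33, with an unadjusted p of 0.00515 and an adjusted p of 0.445 in edgeR (DESeq2 adjusted p = 0.124). Across the fits that leave out 1 library it ran from −1.47 to −1.08.

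SLC7A1 (ENSGALG00000017085, CAT1, the arginine and lysine carrier of most cells) went the other way in 2 of the 3 supplemented libraries, with 7.76, 17.1 and 12.6 CPM in MP_FOS, against 7.57, 7.07 and 8.55 CPM in CT. MP_FOS replicate 1 lay within the CT range, and the log2 fold change was 0.69 ± 0.30 (edgeR adjusted p = 0.473). It was 0.39 without MP_FOS replicate 2, 0.94 without MP_FOS replicate 1 (edgeR adjusted p = 0.0973) and 0.34 in the 4 libraries with W-linked transcripts. SLC7A3, the related carrier CAT3, had 18.7, 49.0 and 32.2 CPM in MP_FOS, against 24.4, 19.2 and 29.2 CPM in CT, with MP_FOS replicate 1 again the lowest of its group. Its log2 fold change was 0.45 ± 0.34, and −0.076 in the 4 libraries with W-linked transcripts. SLC38A9, an arginine sensor of the lysosome that reports to the growth regulator mTORC1, averaged 12.4 ± 2.95 CPM in MP_FOS and 11.6 ± 3.37 CPM in CT.

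Neutral amino acid carriers split evenly, with 8 of 16 tested members higher in MP_FOS and a median log2 fold change of 0.01. SLC36A1 (ENSGALG00000038582) had 52.7, 68.3 and 58.4 CPM in MP_FOS replicates 1, 2 and 3, against 42.6, 43.1 and 40.7 CPM in CT replicates 1, 2 and 3. Every MP_FOS library lay above every CT library. The log2 fold change was 0.50 ± 0.13, with an unadjusted p of 0.00593 and an adjusted p of 0.445 in edgeR (DESeq2 adjusted p = 0.132), and it ran from 0.40 to 0.58 with 1 library left out.

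The other neutral carriers showed wider spread or smaller differences. SLC38A8, a glutamine carrier known from the mammalian eye, had 2.21, 2.85 and 4.38 CPM in MP_FOS, against 2.34, 1.33 and 1.59 CPM in CT, and its groups overlapped (log2 fold change 0.83 ± 0.38, edgeR adjusted p = 0.493). SLC7A5 (LAT1, an exchanger of large neutral amino acids) had 34.1, 45.6 and 37.5 CPM in MP_FOS, against 37.7, 25.4 and 42.2 CPM in CT. SLC38A7, a lysosomal glutamine carrier, was the steadiest of the 16 highest members, spanning 1.21-fold between its lowest and highest library in FPKM, with a log2 fold change of −0.04 ± 0.12 and a 95% interval from −0.32 to 0.23.

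SLC6A20 had 55.9, 77.2 and 29.2 CPM in MP_FOS replicates 1, 2 and 3, against 28.1, 82.8 and 35.4 CPM in CT replicates 1, 2 and 3, so the library without W-linked transcripts was the highest in each diet. The log2 difference of libraries with W-linked transcripts minus those without was −1.13, with an unadjusted p of 0.00499 and an adjusted p of 0.321 in edgeR. This term called 0 of the 38 members and 0.319% of all genes. At an unadjusted p under 0.05 in edgeR it gave 3 members, 7.89%, against 5.73% of all genes, and SLC6A20 had the smallest p among the members. The term was tested after the values were seen. The diet difference of SLC6A20 was 0.15 ± 0.48, and 0.43 in the 4 libraries with W-linked transcripts. It was below 0 without MP_FOS replicate 2 (−0.19), CT replicate 1 (−0.12) or CT replicate 3 (−0.03). It was above 0 without MP_FOS replicate 1 (0.12), MP_FOS replicate 3 (0.45) or CT replicate 2 (0.77).

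Among acidic carriers, 3 of the 5 tested were lower in MP_FOS and the median log2 fold change was −0.44, the value of SLC1A1 itself. SLC1A6 and SLC1A7, glutamate carriers of brain and retina in mammals, had log2 fold changes of −0.67 ± 0.54 and −1.02 ± 0.57, and SLC1A2 and SLC7A11 had 0.31 ± 0.34 and 0.37 ± 0.67. SLC1A6 had 51, 85 and 12 counts in MP_FOS and 83, 109 and 63 counts in CT, and the groups overlapped. The class median was 0.09 with both libraries without W-linked transcripts left out.

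Among amine carriers, 4 of the 5 tested were lower in MP_FOS, with a median log2 fold change of −0.22. SLC6A6 was the one with a higher mean, at 141, 167 and 217 CPM in MP_FOS, against 153, 135 and 141 CPM in CT (log2 fold change 0.29 ± 0.18, edgeR adjusted p = 0.577). SLC6A4 had 35.6, 24.0 and 41.9 CPM in MP_FOS, against 32.7, 37.4 and 31.4 CPM in CT, a log2 fold change of −0.0025 ± 0.21. SLC6A2, which takes noradrenaline back into sympathetic nerve endings, had 1.49, 2.97 and 1.69 CPM in MP_FOS, against 3.78, 2.78 and 4.09 CPM in CT. MP_FOS replicate 2 lay above CT replicate 2, the only crossing between the groups, and the log2 fold change was −0.79 ± 0.36 (edgeR adjusted p = 0.492) and −1.30 in the 4 libraries with W-linked transcripts. SLC6A11, a GABA carrier, had 6.03, 3.27 and 9.52 CPM in MP_FOS, against 10.9, 9.80 and 7.60 CPM in CT. Without MP_FOS replicate 2 the class median was 0.02.

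Among the genes without a settled substrate, SLC7A14 (ENSGALG00000009349), a lysosomal relative of the CAT carriers found in brain and retina, did not overlap between the diets. It had 2.87, 4.75 and 1.6 CPM in MP_FOS replicates 1, 2 and 3, against 6.01, 5.10 and 6.22 CPM in CT replicates 1, 2 and 3. The log2 fold change was −0.90 ± 0.39 (edgeR unadjusted p = 0.0532, adjusted p = 0.475). It was −1.43 in the 4 libraries with W-linked transcripts and ran from −1.35 to −0.60 with 1 library left out. SLC38A10 had 305, 268 and 190 CPM in MP_FOS, against 264, 341 and 292 CPM in CT. SLC7A4, SLC38A6 and SLC43A3, the last a carrier of purine bases, had log2 fold changes between −0.09 and −0.05.

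Members known from nerve or eye went both ways. Of 8 tested ones, gathered after their values were seen, SLC1A6, SLC1A7, SLC6A2, SLC6A11, SLC6A17 and SLC7A14 (6 genes) were lower in MP_FOS, and SLC1A2 and SLC38A8 (2 genes) were higher. Over all genes tested, 48.5% were lower and 51.5% higher. The 8 are not a full list, since SLC6A4, which neurons share with gut epithelium, was not among them. The count therefore depends on which genes are taken, and nothing is read from it. SLC6A17, which loads neutral amino acids into the vesicles of neurons, had a log2 fold change of −0.55 ± 0.45, and −0.99 in the 4 libraries with W-linked transcripts. Among those too low to be tested, SLC6A15, a branched-chain amino acid carrier of neurons, had 7, 5 and 4 counts in MP_FOS and 12, 9 and 9 counts in CT, and SLC6A13 had 1, 5 and 0 counts in MP_FOS and 2, 1 and 0 counts in CT. The 10 enteric neuron and glia markers summed to 19.0, 16.5 and 11.2 FPKM in MP_FOS replicates 1, 2 and 3 and 25.3, 25.5 and 25.2 FPKM in CT replicates 1, 2 and 3. All 10 had a lower mean in MP_FOS, with a median log2 fold change of −0.56, none was at 0, and none passed edgeR. Other marker lists went both ways. The median log2 fold change was 0.38 for macrophage, 0.24 for enteroendocrine, 0.18 for enterocyte and 0.04 for smooth muscle markers. It was −0.03 for T and NK cell, −0.45 for B and plasma cell, −0.53 for mast cell, −0.48 for endothelial and −0.43 for goblet cell markers. The 4 endothelial markers summed to 58.4, 37.5 and 55.4 FPKM in MP_FOS and 68.3, 70.4 and 67.4 FPKM in CT, and all 4 had a lower mean in MP_FOS. The 4 goblet cell markers summed to 2416, 2466 and 1651 FPKM in MP_FOS and 3682, 3745 and 3438 FPKM in CT, with 2 of 4 lower. DESeq2 called 1 of the goblet cell markers and edgeR 0. At an unadjusted p under 0.05, edgeR gave 1 goblet cell marker higher and 1 lower, where 5.72% and 4.86% of all genes were. The direction of the marker that DESeq2 called cannot be read from the sums. The sums of the neuron and glia, endothelial and goblet cell lists did not overlap between the diets, and those of the other cell type lists did. Among single genes 16.7% did not overlap, and no such share was computed for sums. By the median marker (log2 CPM relative to the CT mean), the goblet cell list overlapped, at −0.097 in MP_FOS replicate 2 and −0.11 in CT replicate 2. By that measure the mast cell list did not overlap. The part of these cell types in the transporter values was not tested.

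**Figure D4:**
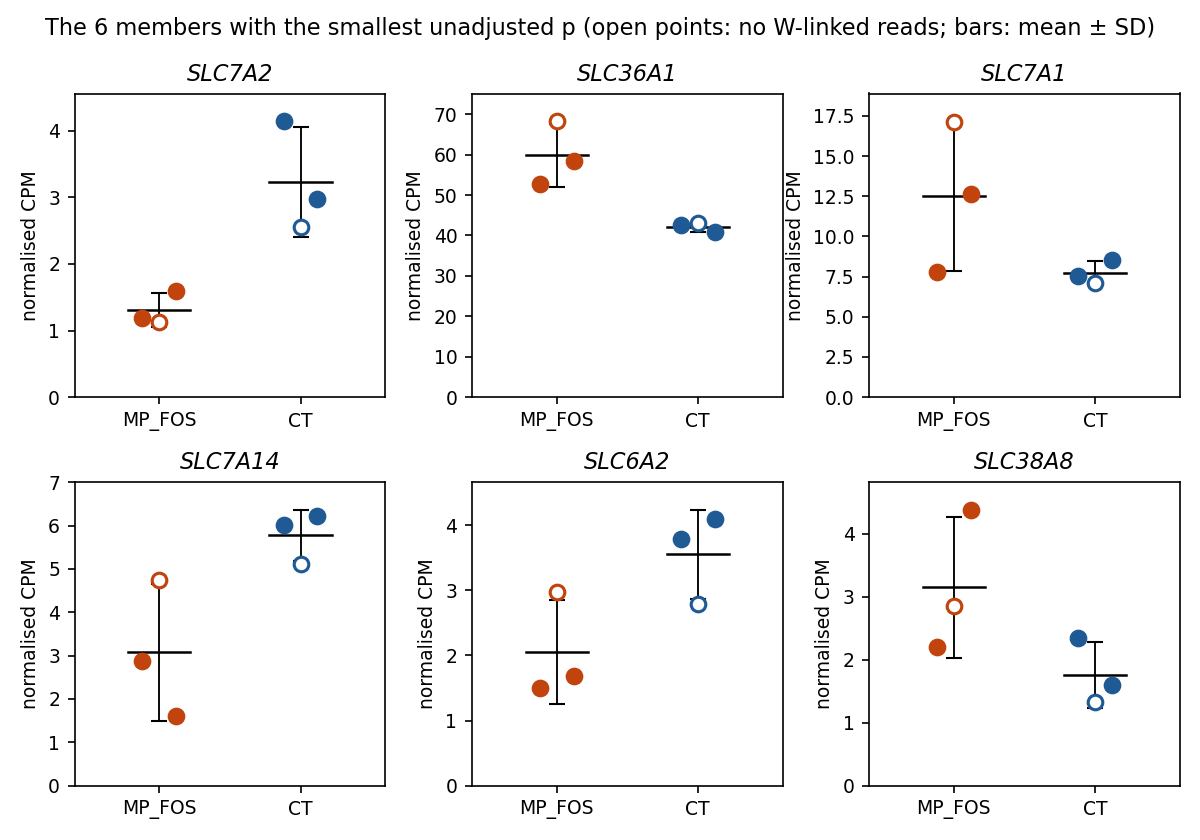
Normalised CPM of the 6 members with the smallest unadjusted p in edgeR in the 3 MP_FOS and 3 CT libraries, with the mean and SD as bars and open points for the libraries without W-linked transcripts. SLC7A2 (1.13 to 1.6 CPM in MP_FOS, 2.55 to 4.14 CPM in CT), SLC36A1 and SLC7A14 do not overlap between the diets, and SLC7A1, SLC6A2 and SLC38A8 do.

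Further rows of the same families carry no symbol in the table and so lie outside the rule. The NCBI identifiers in their descriptions name 4 of them as SLC6A14, SLC6A8, SLC7A7 and SLC7A13. SLC6A14, a brush border carrier that takes neutral and cationic amino acids and is known to rise in inflamed mammalian gut, had 3.55, 70.4 and 6.26 FPKM in MP_FOS replicates 1, 2 and 3, against 4.99, 2.93 and 3.68 FPKM in CT replicates 1, 2 and 3. A single library, MP_FOS replicate 2, set its log2 fold change of 2.90 ± 1.08 (edgeR adjusted p = 0.464), which was 0.39 ± 0.31 without that library (edgeR adjusted p = 0.736). This was the library in which SLC6A19, SLC7A9, SLC3A1 and SLC1A1 were lowest.

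SLC7A7, the light chain that passes cationic amino acids to the blood, averaged 4.46 ± 0.227 FPKM in MP_FOS and 5.6 ± 2.00 FPKM in CT. SLC6A8, the creatine carrier, averaged 43.3 ± 9.51 FPKM in MP_FOS and 50.0 ± 4.52 FPKM in CT, and SLC7A13 was listed at 0 throughout. A row described as a relative of b0,+AT (ENSGALG00000016483) had 40.1, 44.6 and 25.7 FPKM in MP_FOS and 36.5, 54.4 and 30.6 FPKM in CT. How reads were shared between it and SLC7A9 is not given in the sources used here. SLC3A2, the other heavy chain, and its partners SLC7A6 and SLC7A8 were not analysed here.

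Genes that carry or sense amino acids outside these families were read from 4 lists, and neither edgeR nor DESeq2 called a gene in any of them. Of 10 tested peptide and other amino acid carriers, 6 were higher in MP_FOS, with a median log2 fold change of 0.01. SLC16A10, the aromatic amino acid carrier of the basolateral side, had 109, 28.5 and 58.2 CPM in MP_FOS, against 112, 112 and 84.3 CPM in CT. PQLC2 and CTNS, which let cationic amino acids and cystine out of the lysosome, had log2 fold changes of 0.36 ± 0.17 and 0.36 ± 0.24. Of 6 tested genes listed as peptidases and brush border partners, not all of them bound to the brush border, 2 were higher, with a median of −0.20. ENPEP, which removes acidic residues from peptides, averaged 1557 ± 875 CPM in MP_FOS and 2322 ± 461 CPM in CT, and LNPEP, an aminopeptidase, had a log2 fold change of −0.28 ± 0.16.

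The amino acid response, the programme in which the factor ATF4 raises synthesis and uptake genes when amino acids are short, was split evenly, 7 of 14 tested genes being higher in MP_FOS, and its median log2 fold change was −0.02. MTHFD2, an enzyme of one-carbon metabolism, had 10.7, 27.3 and 16.5 CPM in MP_FOS, against 9.67, 10.9 and 10.1 CPM in CT (log2 fold change 0.83 ± 0.32, edgeR adjusted p = 0.467). ATF3, a stress-induced factor of this programme, had 13.7, 81.1 and 104 CPM in MP_FOS, against 25.6, 25.4 and 27.8 CPM in CT. MP_FOS replicate 1 was the lowest of the 6 libraries and the other MP_FOS libraries the highest (log2 fold change 1.33 ± 0.61, edgeR adjusted p = 0.493). CEBPG, a partner of ATF4, did not overlap, at 60.8, 59.7 and 65.1 CPM in MP_FOS, against 45.7, 52.9 and 55.0 CPM in CT (log2 fold change 0.27 ± 0.12, edgeR adjusted p = 0.49). The share without overlap was 16.7% over all genes. SLC38A2, a member that ATF4 is known to raise, had 115, 131 and 164 CPM in MP_FOS, against 130, 107 and 158 CPM in CT.

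Of 19 tested genes of amino acid sensing by mTORC1, 9 were higher in MP_FOS and the median log2 fold change was −0.02. SESN3, a sestrin that acts upstream of mTORC1, had 12.1, 9.80 and 10.3 CPM in MP_FOS, against 17.4, 16.7 and 15.3 CPM in CT. The groups did not overlap, as in 16.7% of all genes, and the log2 fold change was −0.62 ± 0.16 (edgeR unadjusted p = 0.00582, adjusted p = 0.445). SESN3 was named for its small p in this list. At an unadjusted p under 0.05 in edgeR the list held 1 higher and 1 lower gene, where 5.72% and 4.86% of all genes were. FLCN (folliculin), which relays amino acid signals at the lysosome, had 72.1, 113 and 103 CPM in MP_FOS, against 58.0, 75.1 and 66.6 CPM in CT (log2 fold change 0.53 ± 0.19, edgeR adjusted p = 0.464). LAMTOR2, part of the scaffold that holds mTORC1 at the lysosome, had a log2 fold change of 0.46 ± 0.22 (edgeR adjusted p = 0.506).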

How the data were processed

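The authors deposited a table of estimated counts (expected counts) per gene and library, per the file headers, and 7.98% of these count values are not whole. The authors' FPKM stand beside them, per the file headers. Per the submitters' processing notes, fastp 0.18.0, HISAT2, StringTie, Bowtie2 and DESeq2 were used, with no roles given, and as to genome build and strand setting, these are not given in sources used here. Per the labels' protocols, TRIzol RNA went into a kit named for small RNA.

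After rounding, counts entered edgeR 4.0.16 (R 4.3.3) with filterByExpr, TMM scaling and a two-sided quasi-likelihood F test of MP_FOS against CT, Benjamini-Hochberg adjusted over 13774 genes at a threshold of 0.05. CPM carry TMM factors, and an SE is the absolute log2 fold change over the square root of F. Code was tested on simulated counts. Alternatives were DESeq2 1.42.0, its size factors in edgeR, limma 3.58.1 (voom, or trend on log2 FPKM plus 1 or 0.1), no filter, at least 1 CPM in 3 libraries, a replicate block, each library left out, presence of W-linked reads (at least 100) as a term, and the 4 libraries with such reads alone. The test of the W-linked term itself was added after the values were seen. Its interaction with diet was also fitted and is not reported, since each diet has 1 library without such reads.

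Members and lists were chosen with earlier results of these data known. Full values were due for the 16 members of highest mean FPKM, members without overlap at 1 CPM or more, called members, and heavy chains with their partners. Of each other list the 3 genes of smallest p were due, with SLC15A1 and TMEM27. Some genes that entered the fits, counts and medians are not reported here by name. Other named genes were chosen after their values were seen.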

Additional observations from a re-analysis of the deposited data

How the results depend on the processing

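edgeR called 0 members in the 6-library fit, and 0 were called under each of the 17 alternatives, DESeq2 and limma included, while the count over all genes was 105 in DESeq2, 1 in the 4 libraries with W-linked reads, and 0 to 223 with 1 library left out (223 without MP_FOS replicate 1). The correlation of deviations between same-numbered libraries of the diets was 0.000319 for replicates 1, 0.218 for replicates 2 and 0.142 for replicates 3. Between libraries of unlike number it ran from −0.193 to 0.0936, below the values of replicates 2 and 3, while the value of replicates 1 lay within that range. Replicates 2 are also the 2 libraries without W-linked reads, and the cause of their higher value was not tested. The replicate block called 0 genes. The median log2 fold change of all members was −0.15 on log2(FPKM + 0.1), and −0.13 to −0.027 with 1 library left out. That of the neutral class was −0.064 on log2(FPKM + 1), −0.10 on log2(FPKM + 0.1), −0.071 on log2(FPKM + 1) with no filter, and −0.10 to 0.054 with 1 library left out. That of the acidic class was −0.16 on log2(FPKM + 1) with no filter, 0.092 in the 4 libraries with W-linked reads, and −0.62 to −0.15 with 1 library left out, and those of the cationic and amine classes ran from −0.056 to 0.31 and from −0.41 to 0.019 with 1 library left out. The median over all genes was −0.06 on log2(FPKM + 1) and −0.07 on log2(FPKM + 0.1). Members without overlap numbered 14 in the 4 libraries with W-linked reads (36.8% of 38, against 39.3% of all genes) and 5 to 13 with 1 library left out, where smaller groups overlap less often by construction. With 1 library left out the matching share of all genes was not computed, so nothing is read from those counts. W-linked reads as a term give no count of overlap.

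Signs turned in members that no fit called. In the 4 libraries with W-linked reads, log2 fold changes were 0.46 (SLC6A19), 0.043 (SLC3A1), 0.41 (SLC7A9), 0.092 (SLC1A1), −0.047 (SLC38A2), 0.28 (SLC6A4), 0.0083 (SLC38A6), −0.15 (SLC7A5) and −0.076 (SLC7A3). SLC38A2 was at −0.020 on each of the 3 FPKM settings, and SLC6A4 at 0.0051 with no filter. With 1 library left out, the ranges were −0.38 to 0.22 (SLC6A19), −0.60 to 0.070 (SLC7A9), −0.0019 to 0.23 (SLC43A2), −0.10 to 0.20 (SLC38A2), −0.19 to 0.77 (SLC6A20), −0.18 to 0.19 (SLC6A4), −0.33 to 0.054 (SLC38A1), −0.18 to 0.11 (SLC38A6), −0.12 to 0.054 (SLC38A4), −0.034 to 0.31 (SLC7A5), −0.21 to 0.79 (SLC7A11), −0.47 to 0.16 (SLC7A4), −0.11 to 0.36 (SLC38A9), −0.25 to 0.018 (SLC43A3), −0.19 to 0.43 (SLC36A4) and −0.37 to 0.025 (SLC6A18). The causes were not tested. With 3 libraries per diet, differences of the size of the intervals shown for each member could not be resolved.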
